A study of Mus musculus with 16 samples.

Results

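The transcripts described here encode the 8 subunits of the cytosolic chaperonin CCT, also called TRiC. They are Tcp1, Cct2, Cct3, Cct4, Cct5, Cct6a, Cct7 and Cct8, and they were found by gene symbol among the 39179 genes counted in each library. Cct3 had been seen lower in cells without the phosphatase PEP, and the other subunits of the same complex were added by name, so the genotype difference chose these genes and is given below as a description only. RNA was sequenced from bone marrow derived mast cells (BMMCs) of male C57BL/6 mice aged 8 to 10 weeks, after 4 weeks in culture with stem cell factor and IL3. Cells of PEP+/+ mice, which carry the phosphatase encoded by Ptpn22, and of PEP-/- mice, which lack it, were each given 4 treatments. IgE cells were sensitized with immunoglobulin E for 3 h, at 0.05 µg/ml by the sample labels, while the text of the study gives a higher concentration. IgE DNP cells were sensitized likewise and activated with the antigen dinitrophenol (200 ng/ml, 1 h). IgE DEX cells received the glucocorticoid dexamethasone (1e-07 M, 8 h) with the IgE, and IgE DNP DEX cells received all 3 agents. Every sample therefore carried IgE, and no untreated cells were analysed here. Each of the 8 conditions had 2 libraries, 1 labelled with a number and 1 with a letter. The study calls the libraries biological replicates. How the PEP-/- allele was made, and whether the 2 libraries came from separate mice or cultures, is not given in the sources used here, so p-values measure the spread between these samples only.

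CCT is a closed barrel of stacked rings in which each ring holds 1 copy of every subunit, and it uses ATP to fold newly made proteins inside its cavity. Actin and tubulin are its best known clients, handed over in part by the co-chaperone prefoldin, and cell cycle activators and G protein beta subunits also depend on it. Mast cells remodel their actin and microtubule networks when antigen crosslinks their IgE receptors and the granules are released.

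The counts on genes ranged from 8612531 to 22143526 per library, and each CCT subunit held 508 to 6104 of them in every library. Levels are given as CPM, gene counts relative to a fixed library total, after scaling of the libraries by TMM (trimmed mean of M values), which sets the bulk of genes to no change. Ptpn22 stood at 11.3 to 175 CPM in the PEP+/+ libraries and at 0 to 3.03 CPM in the PEP-/- libraries, and the responses of Tnf to DNP and of Tsc22d3 to DEX had the labelled direction in every pair of libraries. The 10 mast cell markers summed to 63085 to 103673 CPM, with Cpa3 at 31678 to 57856 CPM, Cma1 at 8105 to 23568 CPM, Kit at 1805 to 4679 CPM and Fcer1a at 6515 to 12617 CPM, while Mcpt4 (4.56 to 18.5 CPM) and Tpsab1 (1.66 to 162.5 CPM) were low and Hdc ran from 62.8 to 1796 CPM. All 10 were detected in every library, and the summed macrophage (12.7 to 45.4 CPM), neutrophil (0 to 2.35 CPM) and lymphocyte (0 to 0.605 CPM) lists were low. In the megakaryocyte list Itga2b held 1939 to 3919 CPM and Pf4 held 0 to 0.189 CPM. Only reads with 1 place in the genome were counted on genes, and reads with several places came to 30.2 to 40.6% of the gene counts in IgE libraries, 34.9 to 53.2% with DNP, 37.5 to 45.9% with DEX and 48.9 to 75% with both. This share moved with the treatments, and its part in the changes below was not tested.

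The 8 genes lie on 8 chromosomes of GRCm38: Tcp1 at chr17:12915701-12925067, Cct2 at chr10:117051001-117063814, Cct3 at chr3:88297116-88321767, Cct4 at chr11:22990519-23003780, Cct5 at chr15:31590800-31601804, Cct6a at chr5:129786998-129846371, Cct7 at chr6:85451514-85468475 and Cct8 at chr16:87483326-87495873. Cct3 is on the same chromosome as Ptpn22 (chr3:103859795-103912247), at a distance of 15538027 bases. RefSeq promoters were at hand for 7 of the 8 genes, and the 250 bases before the transcription start are shown for the 4 subunits whose values are followed most closely below. All coordinates of the promoters are on GRCm38.p6 and the sequences run 5′ to 3′ along the gene. Capitals mark the GC box (GGGCGG), the CCAAT box (CCAAT) and the ETS site (CCGGAAGT) on either strand, so that CCGCCC and ATTGG are the reversed forms.
Cct3 (chr3:88296885-88297134, plus strand): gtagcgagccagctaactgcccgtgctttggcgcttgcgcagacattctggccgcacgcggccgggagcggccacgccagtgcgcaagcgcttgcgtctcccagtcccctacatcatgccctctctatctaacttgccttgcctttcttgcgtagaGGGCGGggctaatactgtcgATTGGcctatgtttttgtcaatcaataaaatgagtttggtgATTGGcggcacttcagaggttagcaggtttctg
Cct6a (chr5:129787106-129787355, plus strand): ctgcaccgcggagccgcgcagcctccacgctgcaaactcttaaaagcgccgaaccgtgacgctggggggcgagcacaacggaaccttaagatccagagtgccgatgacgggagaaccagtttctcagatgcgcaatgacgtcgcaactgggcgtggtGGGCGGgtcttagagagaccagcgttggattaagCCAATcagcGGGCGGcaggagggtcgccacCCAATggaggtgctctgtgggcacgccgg
Cct7 (chr6:85451255-85451504, plus strand): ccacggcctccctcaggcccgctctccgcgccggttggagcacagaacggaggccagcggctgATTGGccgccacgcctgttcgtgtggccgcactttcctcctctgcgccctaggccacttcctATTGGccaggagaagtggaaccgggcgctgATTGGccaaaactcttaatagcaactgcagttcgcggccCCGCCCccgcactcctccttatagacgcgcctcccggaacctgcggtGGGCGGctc
Cct8 (chr16:87495870-87496119, minus strand): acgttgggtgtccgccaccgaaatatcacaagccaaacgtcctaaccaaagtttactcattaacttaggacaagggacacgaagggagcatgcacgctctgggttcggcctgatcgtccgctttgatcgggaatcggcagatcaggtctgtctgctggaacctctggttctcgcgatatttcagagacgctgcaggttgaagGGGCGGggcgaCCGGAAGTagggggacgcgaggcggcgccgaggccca
A GC box was present in at least 1 promoter of each of the 7 genes and in 32.7% of the 32851 promoters searched. Cct2 and Cct5 had more than 1 promoter, and the Cct5 promoter at chr15:31601540-31601789 held none of the motifs. Counts by gene and shares of promoters are thus unlike measures. The CCAAT box was present in the promoters of Tcp1, Cct3, Cct6a and Cct7 against 33.8% of all promoters. The ETS site was in that of Cct8 alone (2.88% of all). A pair of heat shock half-sites (GAANNTTC) was in 1 promoter of Cct2 alone (6.69% of all). The E-box (CACGTG), the cAMP response element (TGACGTCA) and the core of the amino acid response element (TGATGNAA) were not in these windows of the 7 genes. The letters are a description of these windows and no measure of binding.

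All 8 subunits were expressed in every library. Per kilobase of the main transcript, the median levels over 16 libraries ran from Cct5 (150 CPM per kb, range 113 to 232) through Cct2 (111), Cct4 (104), Cct3 (83.9), Cct7 (79.6), Cct8 (73.7) and Tcp1 (52.4) to Cct6a (38.6 CPM per kb, range 21.1 to 72.8). The ranges of neighbours in this order overlapped. The order below Cct4 changed when the length of all annotated exons was used instead, and for Cct6a, whose annotated transcript is not marked as protein coding, the length is less certain. Of the copies searched for by name, the pseudogenes Cct3-ps1 and Tcp1-ps1 held 1 and 0 counts in all 16 libraries together. Cct6b, the testis form of Cct6a, held at most 26 counts in a library. Reads with several places in the genome were not counted, so these counts cannot show how many reads a subunit shared with a copy. Pseudogenes under other names were not searched for. The exons of Tcp1, Cct6a, Cct7 and Cct8 overlap a gene on the other strand (Mrpl18 and Acat3, Psph, Pradc1 and Usp16), and the strand setting of the counting is not given in the sources used here.

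**Figure D1:**
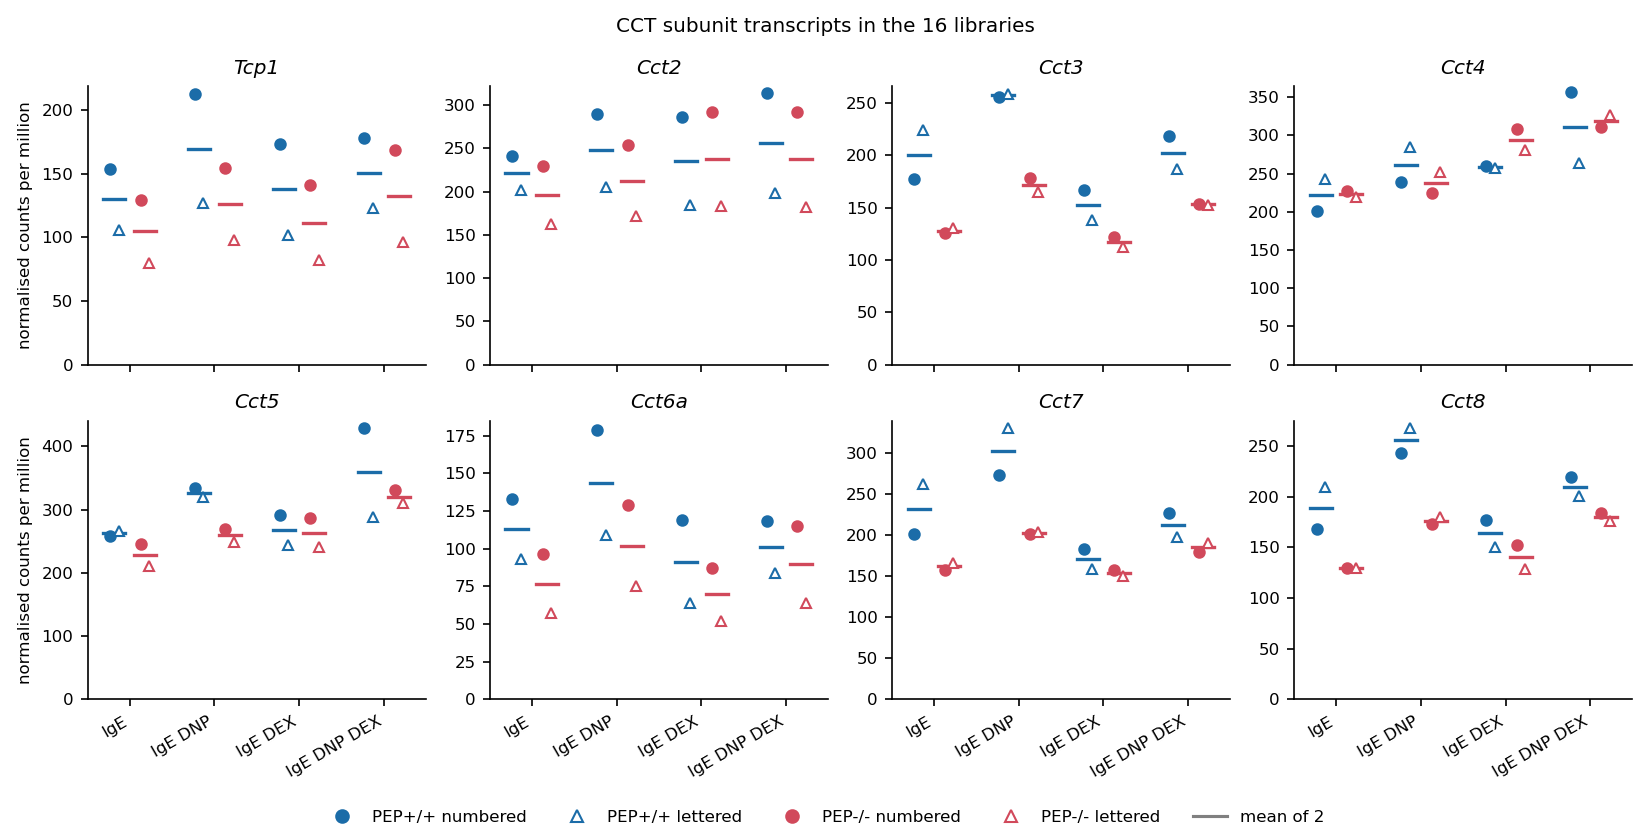
Level of each CCT subunit in TMM-normalised CPM (vertical axes from 0, 1 scale per gene) in the 4 treatments, with PEP+/+ in blue and PEP-/- in red, numbered libraries as filled circles, lettered libraries as open triangles and the mean of 2 as a bar. With this scaling the means of all 8 subunits over both genotypes are higher after IgE DNP than after IgE, an order that turns for 4 of them when libraries are scaled by total counts. Tcp1, Cct2 and Cct6a are lower in every lettered library than in its numbered partner.

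The first comparison asked how the subunits responded to antigen in sensitized cells. Relative to the bulk of genes, Cct3 and Cct8 rose by 1.31-fold and 1.36-fold with DNP, and the fitted changes of the other 6 subunits were positive but did not pass the test. In scaling by total counts, where the median of all genes shifted by -0.34 on the log2 scale, no subunit was called, the 8 changes lay between -0.19 and 0.11, and 4 of them (Tcp1, Cct2, Cct4 and Cct5) were below 0. All 8 fitted changes lay above the median of all genes in both scalings. Of all genes, 26.1% were called with total counts.

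Cct8 encodes the theta subunit. In PEP+/+ cells it stood at 168 CPM in the numbered and 209.7 CPM in the lettered library after IgE, and at 243 and 268 CPM after IgE DNP. In PEP-/- cells the same libraries held 129.9 and 129 CPM after IgE and 173 and 180.2 CPM after IgE DNP. Cct8 was thus higher after DNP in each of the 4 pairs of libraries with the same genotype and label set, while the 4 IgE and 4 IgE DNP libraries overlapped, the PEP-/- libraries with antigen lying near the PEP+/+ libraries without it. The log2 fold change was 0.44 ± 0.12 (SE; adjusted p = 0.0271, edgeR quasi-likelihood test with Benjamini-Hochberg adjustment).

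Cct3 encodes the gamma subunit. Its PEP+/+ libraries held 177 (numbered) and 224 CPM (lettered) after IgE and 256 and 259 CPM after IgE DNP. In PEP-/- cells it went from 125 and 130.4 CPM to 179 and 164 CPM. Again all 4 pairs of libraries were higher with DNP and the groups overlapped. The log2 fold change was 0.39 ± 0.12 (SE; adjusted p = 0.0459, the same test).

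The other 6 changes on the log2 scale were 0.38 ± 0.32 (SE) for Cct6a, 0.35 ± 0.13 for Cct7, 0.33 ± 0.31 for Tcp1, 0.25 ± 0.14 for Cct5, 0.16 ± 0.13 for Cct4 and 0.14 ± 0.26 for Cct2. The median over the 8 subunits was 0.34 beside a median of 0.00 over all 13305 genes tested. The 2 calls among 8 subunits stand beside 9.07% of all genes called higher. In 7 of the 8 subunits, all but Cct4, each of the 4 pairs of libraries was higher with DNP, beside 29.8% of all genes, and with total counts this held for Cct8 alone (12.3% of all genes) while Cct2, Cct4 and Cct5 were lower in all 4 (57.5% of all genes). No subunit had groups that did not overlap (11.6% of all genes did, higher with DNP).

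The standard errors of Tcp1, Cct2 and Cct6a were 0.26 to 0.32 in this fit and 0.08 to 0.09 with the label set (numbered or lettered) as a replicate block. With the block 5 subunits were called higher, beside 18.6% of all genes: Cct8 (adjusted p = 0.00315), Cct6a (0.00511), Cct3 (0.00683), Tcp1 (0.00773) and Cct7 (0.0157), by edgeR's quasi-likelihood test. Cct6a then changed by 0.36 ± 0.09 (SE) and Tcp1 by 0.32 ± 0.08 on the log2 scale. DESeq2 called 3 subunits higher, Cct3, Cct7 and Cct8, beside 10.8% of all genes. Without the block the calls were close to the threshold: leaving out 1 of the 16 libraries at a time ended the call of Cct3 in 13 cases (highest adjusted p = 0.168, without the numbered PEP+/+ IgE library) and that of Cct8 in 6 cases (highest adjusted p = 0.108, without the same library), in edgeR's test with the changes between 0.31 and 0.52 on the log2 scale. The cases for Cct8 were the numbered PEP+/+ IgE library, the lettered PEP+/+ IgE DNP library and all 4 PEP-/- libraries of these treatments, and the 3 libraries that left the call of Cct3 in place were the lettered PEP+/+ IgE library and the PEP+/+ IgE DNP DEX libraries.

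Usp16, a deubiquitinase gene that overlaps Cct8 on the other strand, also rose with DNP, by 0.56 ± 0.12 on the log2 scale (SE; adjusted p = 0.00923, edgeR). It held 29 to 51.9 CPM over all libraries against 129 to 268 CPM of Cct8. Its part in the value of Cct8 was not tested. The overlapping genes of the other subunits, Mrpl18, Psph and Pradc1, gave log2 changes of -0.36, 0.06 and -0.01 with DNP, none of them called. For IgE DEX vs IgE, Mrpl18, Psph, Pradc1 and Usp16 gave -0.41, -0.50, -0.62 and 0.27. Between the genotypes they differed by -0.30, -0.35, -0.51 and -0.07 in the same order, and none was called in either comparison. The part of these genes in the values of the subunits was not tested.

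**Figure D2:**
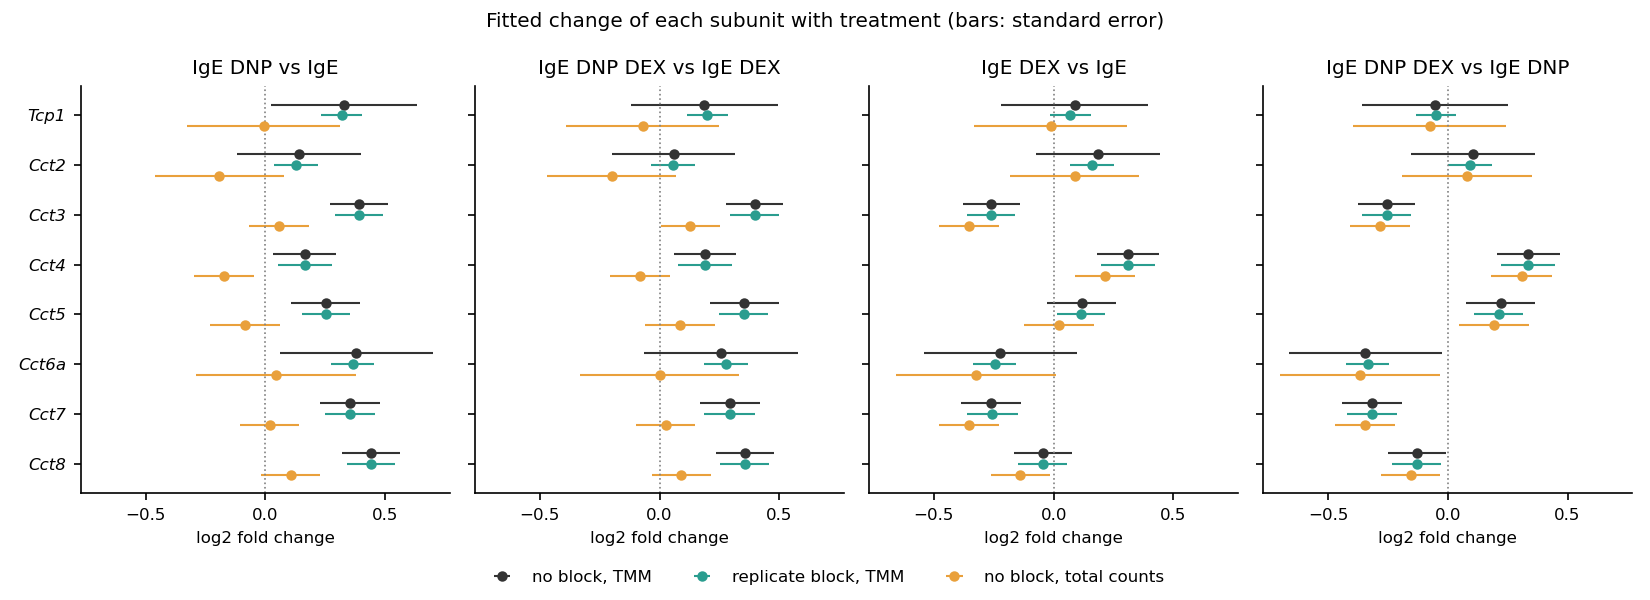
Fitted log2 fold change of each subunit (horizontal axes) in the 4 treatment comparisons, averaged over genotypes, from the fit without the block (dark), with the replicate block (green) and without the block after scaling by total counts (orange), with standard errors as bars. With TMM all points of the comparisons with DNP lie above 0, but total counts bring 4 of the subunits below 0 for IgE DNP vs IgE. For DEX, Cct2, Cct4 and Cct5 lie above 0 and Cct3, Cct6a, Cct7 and Cct8 below 0 in both comparisons and both scalings.

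Antigen given under DEX was compared with DEX alone in other libraries. The fitted changes were 0.40 ± 0.12 (SE) for Cct3, 0.36 ± 0.12 for Cct8, 0.35 ± 0.14 for Cct5, 0.29 ± 0.13 for Cct7, 0.26 ± 0.32 for Cct6a, 0.19 ± 0.13 for Cct4, 0.19 ± 0.31 for Tcp1 and 0.06 ± 0.26 for Cct2, against a median of -0.02 over all genes. With total counts the median of all genes shifted by -0.29, the changes of the subunits lay between -0.20 and 0.13, and 3 of them (Tcp1, Cct2 and Cct4) were below 0. No subunit was called by edgeR without the block (smallest adjusted p = 0.0527, Cct3), beside 7.19% of all genes called higher, with 4 subunits at an unadjusted p under 0.05 and 2 called by DESeq2 (Cct3 and Cct8, with 9.77% of all genes called higher). With the replicate block 5 were called higher, beside 18.4% of all genes: Cct3 (adjusted p = 0.007), Cct8 (0.0135), Cct5 (0.0138), Cct6a (0.0266) and Cct7 (0.0414).

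The Cct5 values show where the spread lies. This gene encodes the epsilon subunit, and in PEP+/+ cells its numbered library rose from 291 CPM with IgE DEX to 429.8 CPM with IgE DNP DEX, while the lettered library went from 243 to 288 CPM. In PEP-/- cells the numbered library went from 286 to 330.5 CPM and the lettered library from 241 to 310.2 CPM. All 4 pairs were thus higher in TMM scaling, but the lettered PEP+/+ library with all 3 agents lay below the numbered library without antigen. Without that lettered library, Cct3 (adjusted p = 0.0344) and Cct5 (adjusted p = 0.0244) passed edgeR's test without the block. Counted over the members, 6 of 8 (all but Cct2 and Cct6a) were higher in all 4 pairs, beside 25% of all genes, and 2 (Cct3 and Cct8) with total counts, beside 11.6%.

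DEX did not move the subunits in 1 direction. In sensitized cells (IgE DEX vs IgE, which shares the IgE libraries with the first comparison) the fitted log2 changes were 0.31 ± 0.13 (SE) for Cct4, 0.19 ± 0.26 for Cct2, 0.12 ± 0.14 for Cct5, 0.09 ± 0.31 for Tcp1, -0.04 ± 0.12 for Cct8, -0.22 ± 0.32 for Cct6a, -0.26 ± 0.12 for Cct3 and -0.26 ± 0.13 for Cct7. None was called by edgeR (smallest adjusted p = 0.213, Cct4) or by DESeq2, with 1 and 3 subunits at an unadjusted p under 0.05, and none with the replicate block (smallest adjusted p = 0.0539, Cct4). Of all genes, 5.4% were called higher and 3.98% lower without the block, and 26.7% were called with it and 12.5% by DESeq2. With total counts Tcp1 turned to -0.01.

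Cct4, which encodes the delta subunit, was the one gene whose groups did not overlap. After IgE it held 201 and 242 CPM in PEP+/+ cells and 228 and 219.8 CPM in PEP-/- cells, in the order numbered and lettered. After IgE DEX it held 260.5 and 257 CPM in PEP+/+ cells and 308 and 281 CPM in PEP-/- cells. The lowest library with DEX was thus above the highest library without it, as in 8.51% of all genes. With total counts its change was 0.21 on the log2 scale, all 4 pairs were higher, and the groups again did not overlap (6.67% of all genes).

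Cct3, Cct6a and Cct7 were lower with DEX in all 4 pairs of libraries in both scalings, beside 25.3% of all genes with TMM and 33.5% with total counts, and none of the 3 passed the test. Cct7, which encodes the eta subunit, went in PEP+/+ cells from 201 to 182 CPM in the numbered pair and from 262 to 158 CPM in the lettered pair. In PEP-/- cells it went from 157.3 to 156.7 CPM and from 166 to 149.8 CPM. Most of its fitted change thus lay in 1 pair of libraries, and the lettered PEP+/+ IgE library was its highest in this comparison.

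In activated cells (IgE DNP DEX vs IgE DNP, which shares no library with the comparison above but shares the IgE DNP libraries with the first) the fitted log2 changes were 0.34 ± 0.13 (SE) for Cct4, 0.22 ± 0.14 for Cct5, 0.10 ± 0.26 for Cct2, -0.05 ± 0.31 for Tcp1, -0.13 ± 0.12 for Cct8, -0.26 ± 0.12 for Cct3, -0.32 ± 0.13 for Cct7 and -0.34 ± 0.32 for Cct6a. Tcp1 alone had another sign than in sensitized cells, and with total counts it was below 0 in both. Without the block no subunit was called by edgeR (smallest adjusted p = 0.142, Cct4) or by DESeq2, with 2 and 3 at an unadjusted p under 0.05, beside 5.67% of all genes called higher and 4.99% lower by edgeR and 14.6% called by DESeq2. With the replicate block Cct4 was higher by 0.34 ± 0.11 (SE; adjusted p = 0.0321), and Cct6a and Cct7 were lower, with log2 changes of -0.33 ± 0.09 (adjusted p = 0.0111) and -0.32 ± 0.11 (adjusted p = 0.0318), in edgeR's test with 15.9% of all genes called higher and 17.4% lower. Cct3, at -0.26 ± 0.10, gave adjusted p = 0.0652 in the same fit. Cct3, Cct6a and Cct7 were lower in all 4 pairs (23.1% of all genes), and Cct4 was higher in 3 of 4.

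For Cct4 the pair that did not rise was the lettered PEP+/+ pair, at 284 CPM after IgE DNP and 264 CPM after IgE DNP DEX. The numbered PEP+/+ pair went from 239 to 357 CPM, and the PEP-/- pairs went from 224 to 311.5 CPM (numbered) and from 252 to 327 CPM (lettered). Without the lettered PEP+/+ IgE DNP DEX library, Cct4 passed edgeR's test without the block (log2 change 0.45, adjusted p = 0.045). Cct6a, which encodes a zeta subunit, went from 179 to 118 CPM and from 109 to 84.0 CPM in PEP+/+ cells, and from 129 to 115 CPM and from 75 to 64.0 CPM in PEP-/- cells. All its 4 pairs thus fell, the PEP+/+ pairs by more.

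Whether the responses differed between conditions was tested with interaction terms. The DNP by DEX term lay between -0.14 (Tcp1) and 0.10 (Cct5) on the log2 scale, with standard errors of 0.17 to 0.45. The genotype by DNP term lay between -0.15 (Cct4) and 0.06 (Cct3) with standard errors of 0.24 to 0.64. The genotype by DEX term, which is positive where DEX lowered a gene less or raised it more in PEP-/- cells, was above 0 for all 8 subunits in sensitized cells (0.02 to 0.36) and in activated cells (0.11 to 0.38), and was highest for Cct7 in both. Leaving out single libraries turned the sign for 3 subunits in sensitized cells (Tcp1, Cct2 and Cct6a) and for 5 in activated cells (Tcp1, Cct2, Cct4, Cct5 and Cct6a). These DEX terms rest on different libraries, but members of 1 complex are not replicates. No subunit was called in any of the 4 terms by edgeR with or without the block or by DESeq2, and none had an unadjusted p under 0.05 (smallest 0.098, Cct7 with the block). Of all genes, 0.331% were called for DNP by DEX (1.57% with the block, 0.759% by DESeq2) and 0% for each of the other terms, with 30 to 95 genes at an unadjusted p under 0.05 in the latter without the block, 143 to 485 with it and 22 to 93 by DESeq2.

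The genotype difference, by which Cct3 had been noticed, is a description, from which nothing is inferred. Averaged over the 4 treatments, Cct3 stood lower in PEP-/- cells by a log2 difference of -0.50, followed by Cct6a (-0.41), Cct8 (-0.38), Cct7 (-0.36), Tcp1 (-0.31), Cct5 (-0.18) and Cct2 (-0.12), and Cct4 stood at 0.03. For Cct3 the 8 differences between libraries of the same treatment and label set ran from -0.78 (lettered, IgE) to -0.29 (lettered, IgE DNP DEX). The 5 subunits Tcp1, Cct3, Cct6a, Cct7 and Cct8 were lower in PEP-/- cells in all 8 of these differences, beside 7.67% of all genes. Cct2 and Cct5 had 7 of 8 differences below 0 and Cct4 had 4 of 8. With total counts the 6 subunits below 0 in all 8 were Tcp1, Cct2, Cct3, Cct5, Cct7 and Cct8 (8.44% of all genes). In edgeR's fit 1 of the 8 subunits (Cct3) was among the genes called lower, which made up 1.16% of all genes, and with the replicate block 5 were, with 9.64% of all genes. These counts come from the contrast that chose the genes and support nothing.

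**Figure D3:**
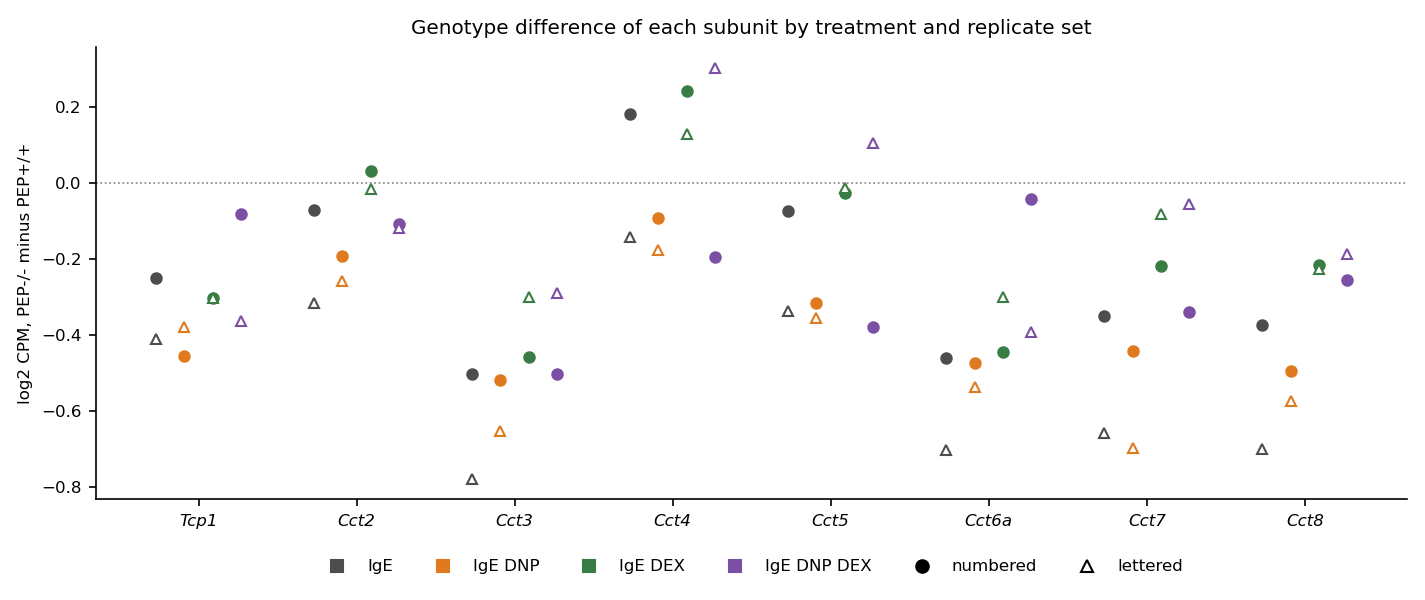
Difference in log2 CPM between the PEP-/- and the PEP+/+ library of the same treatment and label set (vertical axis) for each subunit, coloured by treatment, with numbered libraries as filled circles and lettered libraries as open triangles. All 8 points of Cct3 lie between -0.78 and -0.29, and those of Cct4 lie on both sides of 0.

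Within treatments, the Cct3 difference was -0.65 ± 0.17 (SE) for IgE and -0.59 ± 0.17 for IgE DNP cells, -0.38 ± 0.17 for IgE DEX cells and -0.40 ± 0.17 with all 3 agents. Cct8 gave -0.55, -0.54, -0.22 and -0.22 in the same order and Cct7 gave -0.52, -0.58, -0.15 and -0.20, each with a standard error of 0.17 to 0.18. The differences of these 3 genes were thus smaller in size in both treatments with DEX, which is the same quantity as the genotype by DEX terms above that did not pass the test. Cct4 gave 0.01, -0.14, 0.19 and 0.04. The macrophage list summed to 12.7 to 35.2 CPM in PEP+/+ and 20.4 to 45.4 CPM in PEP-/- libraries with C1qa at 0 throughout, the basophil and eosinophil list to 8.03 to 63.3 and 12.3 to 37.0 CPM with Epx at 0, and the mast cell list to 63085 to 103673 and 68314 to 96398 CPM. In bulk RNA, fewer cells with a transcript and less transcript per cell cannot be told apart. Among 49 tested genes within 1 Mb of Cct3, on the chromosome of Ptpn22, Cct3 not included, the median genotype difference was -0.01 on the log2 scale. In this window 1 gene was called lower in PEP-/- cells and 0 were called higher.

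The subunits fell into groups by how the numbered and lettered libraries differed. Tcp1, Cct2 (the beta subunit) and Cct6a were lower in the lettered library in all 8 conditions, with fitted log2 differences of -0.69, -0.56 and -0.72. Cct5 differed by -0.19 (lower in 7 of 8 conditions), and Cct3 (-0.04), Cct4 (0.02), Cct7 (0.05) and Cct8 (-0.02) lay near the median of all genes (0.01). For Tcp1, which encodes the alpha subunit, the numbered libraries held 129 to 212 CPM and the lettered ones 79.8 to 127 CPM, a gap wider than its response to either agent. The labels do not say what separates the sets. The share of reads outside annotated genes was computed relative to the sum of these reads and the counts on genes. It was 6.54 to 10.8% in numbered and 12.3 to 16.5% in lettered libraries. The part of this share in the differences between the label sets was not tested.

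**Figure D4:**
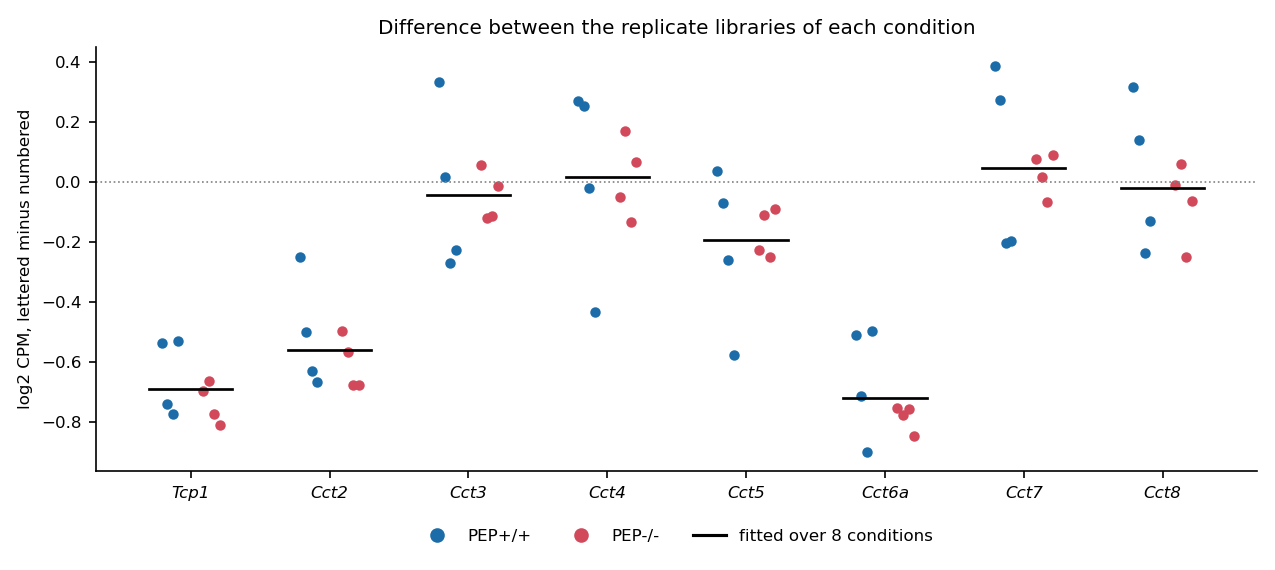
Difference in log2 CPM between the lettered and the numbered library of each condition (vertical axis) for each subunit, in blue for PEP+/+ and red for PEP-/-, with the difference fitted over the 8 conditions as a black bar. The points of Tcp1, Cct2 and Cct6a all lie below 0, and those of Cct3, Cct4, Cct7 and Cct8 lie on both sides of it.

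Over the 16 libraries, which share depth, label set and treatment, the transcripts did not all rise and fall together. Their correlations over single libraries include the difference between the label sets. Pearson's r of the log2 levels was 0.957 for Cct3 with Cct7, 0.947 for Cct3 with Cct8 and 0.922 for Cct7 with Cct8, and it was 0.937 for Tcp1 with Cct6a, 0.926 for Tcp1 with Cct2 and 0.789 for Cct2 with Cct6a. Between these groups of 3 it ran from 0.137 (Cct2 with Cct7) to 0.673 (Cct3 with Cct6a). Cct4 was near 0 with most others (-0.148 with Cct6a, 0.008 with Cct3) and reached 0.686 with Cct5. Against the mean of the other 7 subunits, r was 0.817 for Cct8, 0.812 for Cct5, 0.81 for Cct6a, 0.796 for Tcp1, 0.762 for Cct3, 0.664 for Cct2, 0.654 for Cct7 and 0.146 for Cct4. The same r was also taken over the 8 condition means, which average the numbered and the lettered library. It was then 0.995 for Cct8, 0.96 for Tcp1, 0.914 for Cct3 and 0.872 for Cct7. For Cct6a it was 0.857, for Cct5 0.784, for Cct2 0.694 and for Cct4 0.129. These values describe libraries of 8 conditions and are no test.

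**Figure D5:**
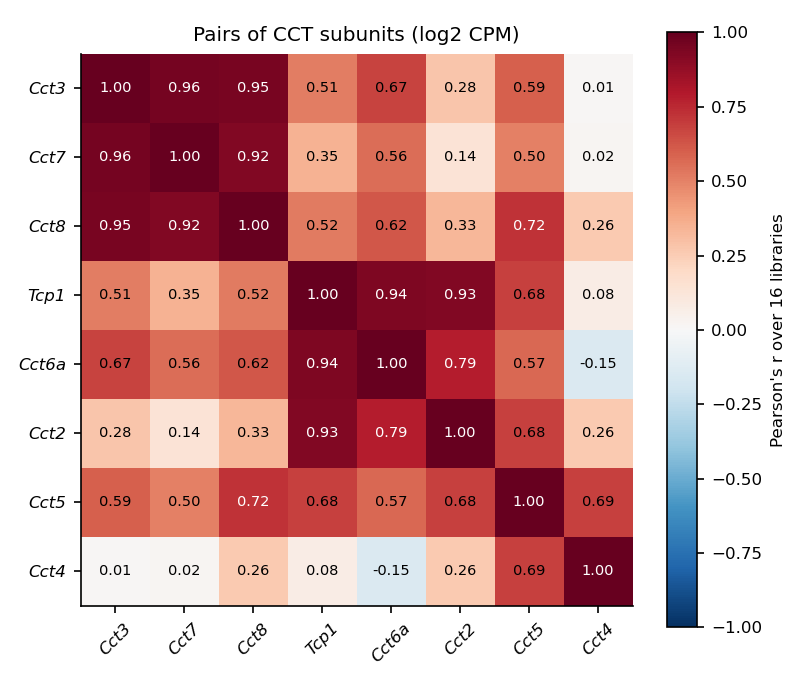
Pearson's r between the log2 CPM of each pair of CCT subunits over the 16 libraries, from -1 (blue) to 1 (red). Cct3, Cct7 and Cct8 form 1 block and Tcp1, Cct6a and Cct2 another, and Cct4 has its highest value, 0.69, with Cct5. The difference between the numbered and lettered libraries is part of these values.

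The genes outside the complex whose levels were most like the mean of the 8 subunits over 16 libraries were Timm23 (r = 0.968), a part of the mitochondrial protein import channel, Nars (0.964) and Hars (0.947), which charge tRNAs with asparagine and histidine, Rbmxl1 (0.954), an RNA binding protein gene, and Strap (0.946). With total counts in place of TMM, r was 0.879 to 0.96 for these 5 genes.

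Genes that work with CCT were followed in lists chosen by function. In sensitized cells with antigen, no prefoldin gene of 6 was called (median log2 change 0.14), nor any of 6 tubulin folding cofactors (0.08). Of the CCT cofactors, 1 of 3 tested was called, Txndc9, a phosducin-like regulator of the complex, with a log2 change of 0.58 (adjusted p = 0.0124, edgeR) that stood at 0.24 and was not called with total counts. Among 17 actin and tubulin clients 5 rose and 1 fell. Tubb6, a beta tubulin, rose from 15.9 to 29.6 CPM in the IgE libraries to 97.1 to 117 CPM with DNP, cytoplasmic gamma actin (Actg1) from 344 to 426 CPM to 870 to 1290 CPM, and the alpha tubulin Tuba1c from 106 to 144 CPM to 258 to 349 CPM, while Tuba8 fell from 82.6 to 104 CPM to 47.4 to 62.3 CPM. These 4 kept their direction with total counts. Of 15 other clients 1 rose and 3 fell, the latter being Mlst8, Plk1 and Vhl. The cytosolic heat shock chaperones moved most, with 11 of 18 tested called higher and a median of 0.86, led among well expressed genes by the Hsp70 partner Dnajb1 (log2 change 3.41, adjusted p = 2.3e-06, edgeR). Their Hspa1a and Hspa1b were near 0 without antigen, so the size of their change is uncertain. Of the chaperones of mitochondria and endoplasmic reticulum, Hspa5 (log2 change 1.28) and Hspa9 (0.81) were called higher by edgeR, though Hspa9 was not called with total counts. Of the regulators of chaperone genes, Mycn and Myc rose, by 2.86 and 1.55 on the log2 scale, and Hsf1 was not called. In scaling by total counts 10 of the 18 heat shock genes were called, beside 26.1% of all genes. The median of the actin and tubulin list was 0.05 in that scaling, against a median of -0.34 over all genes. Of all genes, 9.07% were called higher and 7.58% lower with TMM and without the block.

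The same lists were followed with DEX. In IgE DEX vs IgE, 5 of 17 actin and tubulin genes were called lower (median -0.40), beside 3.98% of all genes, among them Actg1 (344 to 426 CPM without and 160 to 242 CPM with DEX), Actb (2667 to 4422 and 1563 to 2408 CPM) and Tuba1a (81.7 to 124 and 33.8 to 69.6 CPM), and none was called higher, beside 5.4% of all genes. Actb, Actg1 and Tuba1a were also lower with DEX in activated cells, with log2 changes of -0.73, -0.94 and -0.85. Of the heat shock genes, Dnajb1 (-1.02) and Hsph1 (-0.50) were called lower and Dnaja1 (0.55) higher by edgeR in activated cells. Hsp90aa1, the inducible cytosolic Hsp90, was lower in both comparisons (-0.82 and -0.71), as was Hsp90b1, its counterpart in the endoplasmic reticulum (-0.48 and -0.46), and Hspa4, a nucleotide exchange factor of Hsp70, was higher (0.38 and 0.36), all called by edgeR, though Hspa4 was not called with total counts. For antigen under DEX, 6 of 17 actin and tubulin genes and 10 of 18 heat shock genes were called higher, beside 7.19% of all genes, and none of either list lower, beside 5.42% of all genes. For the genotype no more than values are given: the medians were -0.16 for the actin and tubulin list, -0.09 for the heat shock list, -0.16 for prefoldin and -0.38 for the chaperones of mitochondria and endoplasmic reticulum, beside -0.33 for the 8 CCT subunits and 0.02 for all genes.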

How the data were processed

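The authors aligned the reads to GRCm38 with TopHat2 and counted them on genes with HTSeq, and they deposited whole-number counts per gene for each of the 16 samples, with 5 further rows for reads not assigned to a gene. Those 5 rows, which held 29.1 to 49.6% of all counts in a library, were left out. The strand setting of the counting is not given in the sources used here. Symbols and positions came from GENCODE on GRCm38 (37607 of 39179 identifiers, 96.0%) and promoters from RefSeq.

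Counts were scaled by TMM and tested with the quasi-likelihood test of edgeR 4.0.16 in R 4.3.3 on all 16 samples, with 1 mean per condition, 8 residual degrees of freedom and Benjamini-Hochberg adjustment over 13305 genes kept by filterByExpr (minimum count 10), and changes were called at an adjusted p under 0.05. The common biological coefficient of variation was 0.312. All 8 subunits passed the filter. Treatment comparisons average the differences within each genotype. A sequencing read has no molecular identifier, so precision rests on the replicates.

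Labels give 1 library of each condition a number and the other a letter. The differences between these libraries correlated between conditions in all 28 pairs of conditions (r 0.453 to 0.799), so the label sets were taken to pair the samples and the fit with this replicate block is given where it changes a call. Alternatives were DESeq2 1.42.0, its size factors, total counts, other filters, only the conditions compared, the block and each library left out. All 8 subunits are named. From each list of related genes, up to 3 called genes in each direction could be named, and not all of these are given. The subunits, the lists and the tests were chosen with earlier results of these data known. Comparisons made by the authors were not used.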

Additional observations from a re-analysis of the deposited data

Results flagged for a closer look

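Cct2 was picked out where antigen under DEX was compared with DEX alone, because differences within pairs of libraries had opposite signs in the genotypes. In PEP+/+ cells log2 CPM differed by 0.136 in the numbered and 0.099 in the lettered pair, and in PEP-/- cells by -0.002 in both. The PEP-/- pairs thus hardly moved, and the contrast lies in the sign alone. With total counts, where the median of all genes shifted by -0.29, Cct2 was lower in all 4 pairs. Without DEX the PEP-/- pairs differed by 0.148 and 0.08 with antigen, opposite in sign to those -0.002 values. Fitted within genotypes, these 3 changes were 0.12, -0.002 and 0.12 on the log2 scale with a standard error of 0.365 each, and none was called by edgeR. The difference between the genotypes under DEX, and the difference with and without DEX within PEP-/- cells, were not themselves tested. Averaged over genotypes, the DNP by DEX term of Cct2 was -0.08 on the log2 scale and was not called by edgeR.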

How the results depend on the processing

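For IgE DNP vs IgE, where 2 subunits were called, 5 were called with the replicate block and 0 with total counts, without a filter and with only the conditions compared in the fit, and leaving out 1 library at a time gave 0 to 2. For IgE DNP DEX vs IgE DEX, where 0 were called, the counts were 5 with the replicate block, 2 with DESeq2, 1 each with DESeq2's size factors and with at least 10 counts in every sample, and 0 to 2 with 1 library left out. For IgE DNP DEX vs IgE DNP, also 0, they were 3 with the replicate block and 0 to 1 with 1 library left out. For the genotype average, which chose the genes, 1 was called, 5 with the replicate block, 3 with DESeq2, 2 each with total counts and with at least 10 counts in every sample, and 0 to 2 with 1 library left out. The count of called subunits for IgE DEX vs IgE and for the 4 interaction terms was 0 in every alternative run, so the replicate block changed no call there. Over all genes, the block raised the calls from 2216 to 5042 for IgE DNP vs IgE and from 1247 to 3548 for IgE DEX vs IgE. For IgE DNP DEX vs IgE DNP they rose from 1418 to 4429, and for IgE DNP DEX vs IgE DEX from 1678 to 5007. For DNP by DEX they rose from 44 to 209 and for the genotype from 212 to 2310. DESeq2 called 2297 of 13305 genes for IgE DNP DEX vs IgE DEX and 697 of 12273 for the genotype. With total counts 3466 of 13305 genes were called for IgE DNP vs IgE and 232 for the genotype. The totals over all genes in the other alternatives are not given here.

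The sign of a fitted log2 change turned only for subunits that were not called in the fit without the block. Tcp1, called higher with the block for IgE DNP vs IgE, was among those that turned with total counts. With total counts IgE DNP vs IgE gave -0.007 for Tcp1, -0.19 for Cct2, -0.17 for Cct4 and -0.085 for Cct5, IgE DEX vs IgE gave -0.012 for Tcp1, IgE DNP DEX vs IgE DEX gave -0.07 for Tcp1, -0.20 for Cct2 and -0.08 for Cct4, the DNP by DEX term of Cct7 was 0.007 and the genotype by DNP term of Cct2 was 0.027. The genotype by DNP term of Cct8 was -0.008 with at least 10 counts in every sample, and the genotype by DEX term of Tcp1 in sensitized cells was -0.008 without a filter.

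Leaving out 1 library at a time also turned signs. For Cct2 the range was -0.027 to 0.276 in IgE DNP vs IgE, -0.004 to 0.334 in IgE DEX vs IgE, -0.065 to 0.275 in IgE DNP DEX vs IgE DNP and -0.103 to 0.248 in IgE DNP DEX vs IgE DEX. For Tcp1 it was -0.132 to 0.283 in IgE DEX vs IgE, -0.264 to 0.168 in IgE DNP DEX vs IgE DNP and -0.017 to 0.407 in IgE DNP DEX vs IgE DEX, and for Cct8 -0.119 to 0.04 in IgE DEX vs IgE. The DNP by DEX terms ran from -0.336 to 0.098 for Tcp1, -0.233 to 0.108 for Cct2, -0.083 to 0.088 for Cct3, -0.056 to 0.154 for Cct4, -0.021 to 0.261 for Cct5, -0.334 to 0.138 for Cct6a and -0.162 to 0.046 for Cct7. The genotype by DNP terms ran from -0.445 to 0.34 for Tcp1, -0.315 to 0.264 for Cct2, -0.112 to 0.222 for Cct3, -0.291 to 0.026 for Cct4, -0.343 to 0.497 for Cct6a, -0.265 to 0.126 for Cct7 and -0.158 to 0.16 for Cct8. The genotype by DEX terms in sensitized cells ran from -0.425 to 0.453 for Tcp1, -0.186 to 0.541 for Cct2 and -0.261 to 0.688 for Cct6a, and in activated cells from -0.247 to 0.577 for Tcp1, -0.291 to 0.44 for Cct2, -0.051 to 0.37 for Cct4, -0.115 to 0.449 for Cct5 and -0.185 to 0.732 for Cct6a. The cause of these moves was not tested. The fits with 1 library left out held no block. With 2 libraries per condition, changes of the size seen here lie close to what the fit without the block resolves. With the block the standard errors for IgE DNP vs IgE were 0.08 to 0.11.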
